A study of Arabidopsis thaliana with 12 samples.

Results

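GH3.1, GH3.3, GH3.17, WES1 (also called GH3.5) and IAA30 are 5 genes of the GH3 and Aux/IAA families, followed here in Arabidopsis root protoplasts. They are grouped here as auxin response genes, though the groups of arrays do not differ in auxin given. The 5 were taken by name, as every probe set whose annotation names one of them. The names were chosen with earlier results of these data known. How many of the 5 passed a threshold is therefore a description of these genes, not a test of auxin genes at large. Each had 1 probe set, so they make up 5 of the 13350 genes with a named probe set, and of the 22746 probe sets tested. The 12 arrays fall into 4 groups of 3. One group received 10 µM dexamethasone (DEX) and 35 µM cycloheximide (CHX), one CHX alone, one DEX alone and one neither. All were protoplasts, cells freed of their walls, from roots of ecotype Columbia. The sample descriptions name ABI3-GR in every group, so cells without DEX carry the fusion too. ABI3 is a transcription factor of seed maturation, and the labels state that DEX brings it into the nucleus and that CHX stops translation. No arrays of cells without the construct were used here, so a response to DEX itself and one to nuclear ABI3 cannot be told apart.

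Auxin acts by bringing Aux/IAA repressor proteins to their receptors for destruction, which frees the auxin response factors to transcribe their targets. Early among those targets are genes of the Aux/IAA family itself and of the GH3 family, whose enzymes join amino acids to auxin and so take it out of action. Members of both families are known for being transcribed without new protein synthesis when auxin is given. In roots the balance between free and conjugated auxin bears on elongation, branching and hair growth.

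Values are log2 intensities, floored at 16 before the logarithm, and each group has n = 3 arrays. Every array had the same 2%-trimmed mean, and 2.84% to 17.9% of probe sets per array were at or under the floor. None of the 5 genes was at the floor on any array. Hybridisation controls had a geometric mean of 215 on replicate 1 of CHX alone, against 7102 to 12904 on the other 11 arrays. The named root markers were few: PYK10, a beta-glucosidase gene of root ER bodies, was at 8.44 ± 0.28 with both agents, 8.55 ± 0.11 with CHX, 12.91 ± 0.18 with DEX and 13.30 ± 0.21 with neither (SD, n = 3 each). EXPA7, a root hair expansin gene, was at 4.62 ± 1.07, 4.75 ± 0.65, 6.33 ± 0.74 and 5.80 ± 0.997 in the same groups (SD, n = 3 each), with 3 of 6 arrays with CHX at the floor. Names of shoot, stele, root cap and quiescent centre markers matched no probe set in the annotation used here. Of the seed markers 2 were named. PAP85, a storage protein gene, was at 6.92 ± 1.76 with both agents, 6.80 ± 0.67 with CHX, 8.91 ± 0.07 with DEX and 8.63 ± 0.29 with neither (SD, n = 3 each). OLEO3, an oil body gene, was at 6.57 ± 0.81, 6.61 ± 0.33, 8.15 ± 0.28 and 6.12 ± 0.86 in those groups (SD, n = 3 each), separate and higher with DEX alone than with neither but not past the threshold (limma adjusted p = 0.549). Their part in the results below was not tested. The root identity rests on PYK10 in cells without CHX. In bulk RNA, fewer cells of a type and less RNA per cell cannot be told apart.

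CHX alone against neither asks how the genes behaved when translation was blocked. All 5 changed. GH3.1, GH3.3 and IAA30 rose 12.5-fold, 7.60-fold and 21.4-fold, while GH3.17 fell 6.01-fold and WES1 fell 2.39-fold. The 4 GH3 genes therefore moved both ways. In all, 26.9% of probe sets passed in this comparison at a limma adjusted p under 0.05, 10.9% higher and 16.1% lower. The arrays of the 2 groups did not overlap for any of the 5 genes, as was the case for 16.2% of probe sets with CHX higher and 24% with CHX lower. A single gene that passed was thus common, and the size of each change is given below beside that background. Arrays with and without CHX differed in PYK10 as well, and its part in these changes was not tested. So did signal from the 3' over the 5' end of ubiquitin, which tracks how intact the RNA is, with ratios of 6.10, 5.57 and 5.08 with CHX alone and 6.26, 7.58 and 6.28 with neither. The GAPDH ratios separated these groups too, while those of actin overlapped. For actin they were 5.77, 16.6 and 5.66 with CHX alone and 5.37, 8.38 and 9.24 with neither. The part of these ratios in the changes was not tested.

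**Figure D1:**
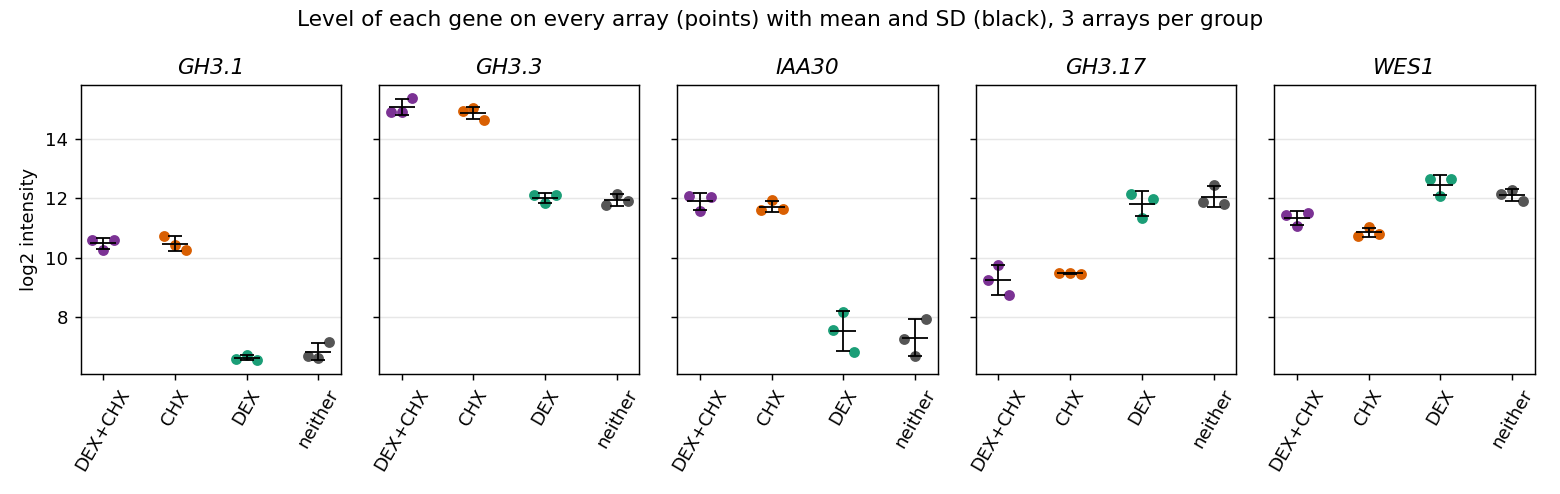
Log2 intensity (vertical axis) of each gene on every array (coloured points) with the mean and SD of 3 arrays (black) in the 4 groups. GH3.1, GH3.3 and IAA30 are higher on all 6 arrays with CHX than on all 6 without, and GH3.17 and WES1 are lower on all 6.

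IAA30 encodes an Aux/IAA protein that lacks the degron by which auxin receptors take hold of most of its family. Its level was 11.60, 11.93 and 11.65 with CHX alone, against 7.28, 6.70 and 7.95 with neither. The lowest CHX array stood well above the highest untreated one. The log2 change of 4.42 (SE 0.34; limma adjusted p = 6.62e-07) was exceeded by 0.510% of all probe sets. It was the largest change of the 5 genes in this comparison.

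GH3.1 encodes an enzyme of the auxin-conjugating branch of the family. Its level was 10.75, 10.42 and 10.26 with CHX alone and 6.71, 6.64 and 7.16 with neither. The groups did not overlap, and the spread within each was small beside the gap. The log2 change was 3.64 (SE 0.22; limma adjusted p = 8.57e-08), with 1.07% of probe sets rising further.

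GH3.3 belongs to the same branch and is known in adventitious root formation. Its level was 14.94, 15.04 and 14.64 with CHX alone, against 11.77, 12.15 and 11.91 with neither. It was thus readily detected in untreated cells, and every CHX array was higher. The log2 change was 2.93 (SE 0.19; limma adjusted p = 1.28e-07), and 1.93% of probe sets rose further.

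GH3.17 encodes an enzyme that joins glutamate to auxin and is known from roots. Its level was 9.49, 9.49 and 9.44 with CHX alone and 11.89, 12.46 and 11.83 with neither. The 3 CHX arrays lay within 0.05 of each other and below every untreated array. Its log2 change of -2.59 (SE 0.27; limma adjusted p = 8.51e-06) was deeper than that of all but 1.87% of probe sets.

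WES1 acts on auxin and is also known to act on salicylic acid. Its level was 10.73, 11.04 and 10.80 with CHX alone, against 12.15, 12.28 and 11.90 with neither. The arrays did not overlap, with a smaller gap than in the other 4 genes. The log2 change was -1.26 (SE 0.19; limma adjusted p = 0.000217), and 12.8% of probe sets fell further, so WES1 was not among the deepest falls.

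**Figure D2:**
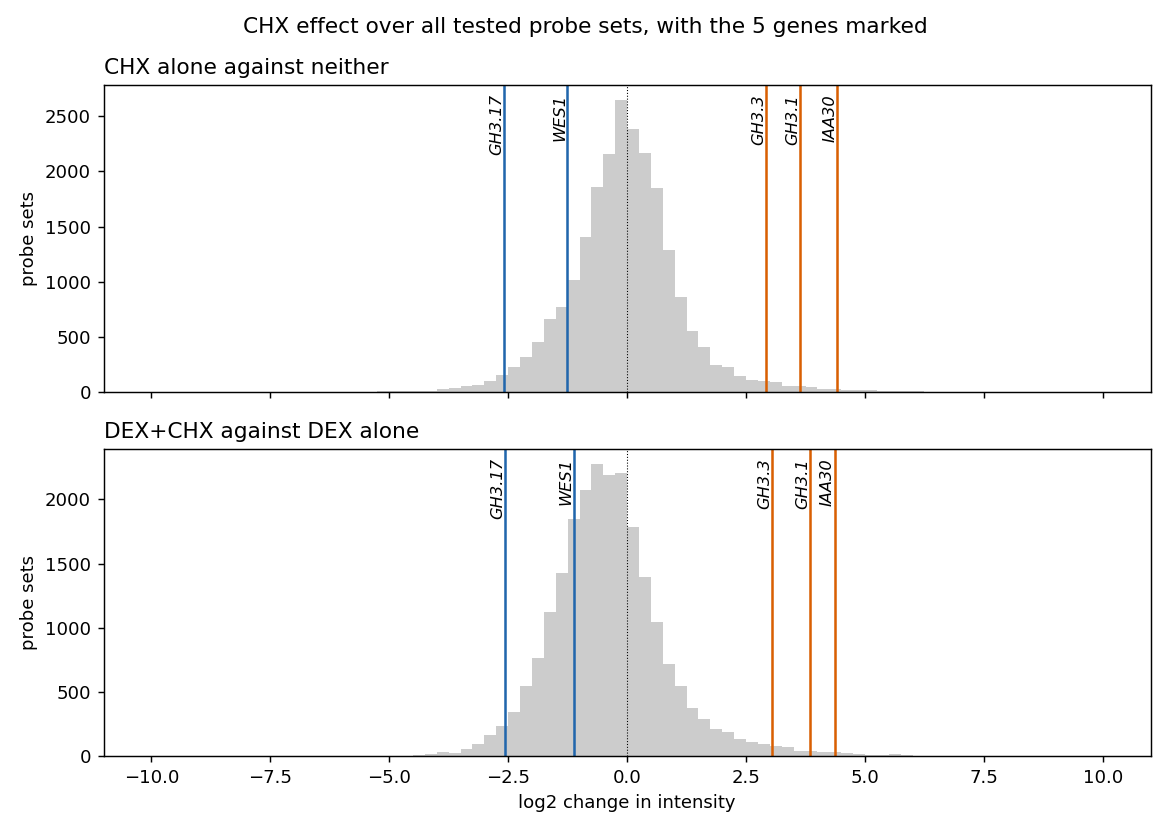
Number of probe sets (vertical axis) by log2 change with CHX (horizontal axis, bins of 0.25) over all 22746 tested, for CHX alone against neither (top) and DEX+CHX against DEX alone (bottom). Lines mark the 5 genes, orange where higher and blue where lower. IAA30, GH3.1 and GH3.3 lie in the upper tail and GH3.17 in the lower tail of both panels, while WES1 lies nearer the bulk.

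CHX was also compared in cells given DEX, on the 6 arrays not used above, as DEX+CHX against DEX alone. The 2 comparisons share no array, though they share each probe set's estimate of the spread. All 5 genes changed again and each in the same direction, where 31% of probe sets passed, 10.6% higher and 20.4% lower. Again no gene had overlapping arrays, where 13.2% of probe sets were separate and higher and 27.5% separate and lower. IAA30 rose 20.6-fold, GH3.1 14.4-fold and GH3.3 8.28-fold, while GH3.17 fell 5.89-fold and WES1 fell 2.18-fold. Here the median of all probe sets was -0.46 on the log2 scale, against -0.05 without DEX, and it was 0.03 after arrays were centred on their medians, so the falls in particular are to be read against that shift. The ubiquitin ratios of these groups overlapped, at 6.51, 7.41 and 8.01 with both agents and 6.25, 5.97 and 6.78 with DEX alone; their part in the changes was not tested.

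IAA30 was at 12.09, 11.57 and 12.04 with both agents and at 7.58, 8.18 and 6.84 with DEX alone. All arrays with both agents were higher, and the log2 change was 4.36 (SE 0.34; limma adjusted p = 7.17e-07). GH3.1 was at 10.61, 10.27 and 10.59 with both, against 6.61, 6.74 and 6.57 with DEX alone, a log2 change of 3.85 (SE 0.22; limma adjusted p = 5.08e-08). GH3.3 was at 14.93, 14.91 and 15.38 with both and at 12.13, 11.83 and 12.11 with DEX alone. Neither GH3 gene had overlapping groups. The log2 change of GH3.3 was 3.05 (SE 0.19; limma adjusted p = 9.04e-08), and 2.33 after quantile normalization.

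GH3.17 was at 9.27, 9.77 and 8.74 with both agents, against 12.14, 11.34 and 11.98 with DEX alone (log2 change -2.56, SE 0.27; limma adjusted p = 9.91e-06). All arrays with both agents were lower. They were spread more widely than the nearly equal arrays of CHX alone, at an SD of 0.52 against 0.03. WES1 was at 11.44, 11.08 and 11.50 with both and at 12.66, 12.08 and 12.66 with DEX alone. The groups did not overlap, and the log2 change of -1.13 (SE 0.19; limma adjusted p = 0.000523) was exceeded in depth by 25.1% of probe sets. With arrays centred on their medians the WES1 change was -0.64 and no longer passed (limma adjusted p = 0.201). After quantile normalization it was -1.55 and passed (limma adjusted p = 1.32e-06). The size of the WES1 fall in cells given DEX, and whether it passed, thus depend on how the arrays are scaled.

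The comparisons of DEX ask which genes respond when ABI3 enters the nucleus. None of the 5 genes passed in limma either with or without CHX. With CHX, 0.273% of all probe sets passed, and without it 0.0132%. At an unadjusted p under 0.05 there were 1781 and 1461 of 22746 probe sets, and WES1 with CHX was the 1 of the 5 genes among them. The 2 comparisons share no arrays, and the level of each gene on every array is given above. The median of all probe sets was -0.12 with CHX and 0.10 without, and 0.04 and -0.10 after centring, so shifts of that size depend on the scaling.

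For DEX+CHX against CHX alone the log2 change of GH3.1 was 0.01 (95% interval -0.47 to 0.50), a group mean of 10.49 ± 0.19 against 10.48 ± 0.25 (SD, n = 3 each). That of GH3.3 was 0.20 (95% interval -0.21 to 0.61), of IAA30 0.17 (-0.58 to 0.92) and of GH3.17 -0.21 (-0.80 to 0.37). The arrays of both groups overlapped in all 4 genes, as in most probe sets (4.26% were separate and higher, 7.68% separate and lower). The intervals leave room for changes of under 2-fold in either direction, which these data would not show. WES1 averaged 11.34 ± 0.23 with both agents and 10.86 ± 0.16 with CHX alone (SD, n = 3 each). Its 3 arrays with both were all higher, the 1 case among the 5 genes, but the log2 change of 0.48 (SE 0.19, 95% interval 0.07 to 0.90) did not pass (limma adjusted p = 0.571). The ubiquitin ratios given above also separated these groups, from 6.51 to 8.01 with both agents and from 5.08 to 6.10 with CHX alone. So did the GAPDH ratios, while those of actin, at 11.4, 4.79 and 5.26 with both agents, overlapped those of CHX alone. The part of these ratios in the WES1 values was not tested.

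**Figure D3:**
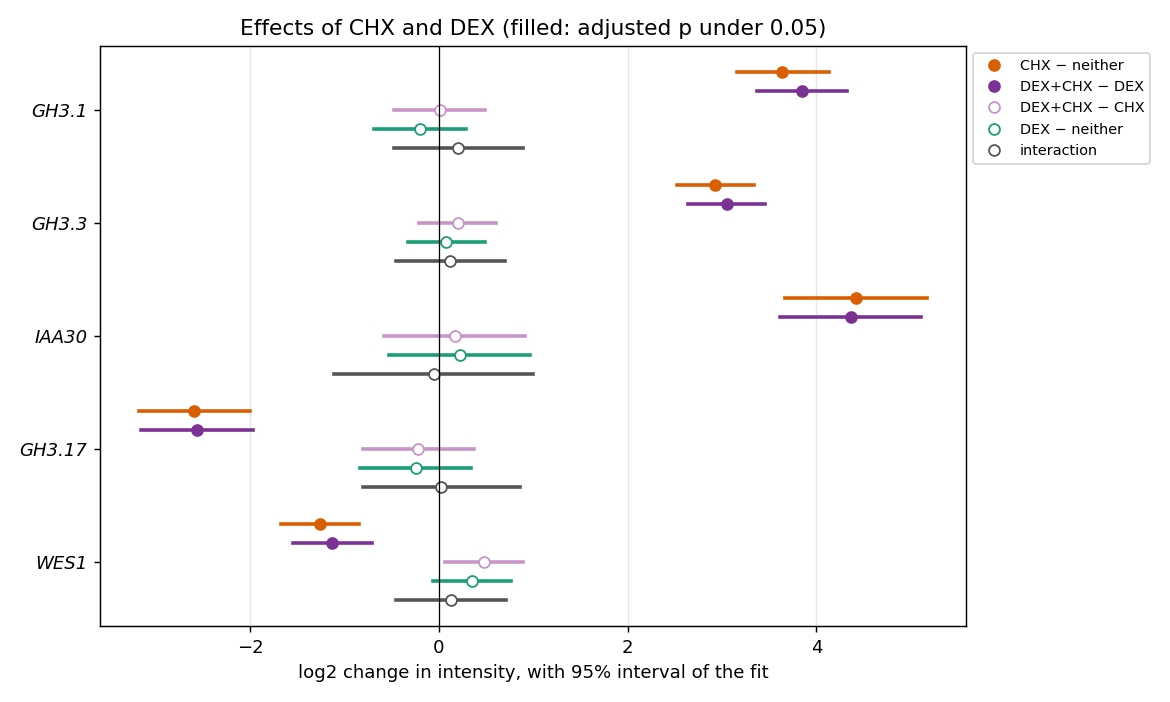
Fitted log2 change (horizontal axis) of each gene with its 95% interval in the 2 CHX comparisons, the 2 DEX comparisons and their interaction; filled points have an adjusted p under 0.05. All 10 CHX effects are filled and lie away from 0, while the DEX effects and interactions are open.

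For DEX alone against neither, the log2 changes were 0.35 (95% interval -0.06 to 0.77) for WES1, 0.23 (-0.52 to 0.97) for IAA30, 0.08 (-0.33 to 0.49) for GH3.3, -0.20 (-0.68 to 0.29) for GH3.1 and -0.24 (-0.83 to 0.35) for GH3.17. All 5 pairs of groups overlapped, where 6.87% of probe sets were separate and higher and 4.69% separate and lower. Averaged over both CHX states, a comparison added after the data were seen, WES1 had a log2 change of 0.42 (SE 0.14; unadjusted p = 0.00906, limma adjusted p = 0.548). None of the 5 genes passed in that average, where 0.127% of probe sets did. Whether WES1 responded to DEX is not shown.

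The interaction asks whether the response to one agent depended on the other. It was 0.21 (95% interval -0.48 to 0.89) for GH3.1, 0.12 (-0.46 to 0.70) for GH3.3, 0.03 (-0.80 to 0.86) for GH3.17, 0.13 (-0.46 to 0.72) for WES1 and -0.05 (-1.11 to 1.0) for IAA30. No gene passed in limma (adjusted p from 0.875 to 0.989), and 0.0044% of all probe sets did, with 1814 of 22746 at an unadjusted p under 0.05 and none of the 5 genes among those. The median interaction of all probe sets was -0.22, and 0.14 after centring. The interval for GH3.3 keeps any difference between its CHX responses under 2-fold, and that of IAA30 reaches slightly past 2-fold.

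The order of the groups followed CHX in every gene. GH3.1 was highest with both agents, then with CHX alone, with neither and with DEX alone. GH3.3 and IAA30 had the order both, CHX alone, DEX alone, neither. GH3.17 ran from neither through DEX alone and CHX alone to both. In these 4 genes neighbours on the same side of CHX overlapped, and the one step that separated the arrays lay between the groups without CHX and those with it. WES1 ran from DEX alone through neither and both to CHX alone, and here the step between the 2 groups with CHX separated the arrays too.

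The other genes of the auxin pathway were read from lists of names. The lists held 29 GH3 names and 45 Aux/IAA names, many of them alternative names of 1 gene. From them 5 GH3 and 7 Aux/IAA genes were read, the 5 described here included. Only probe sets with 1 gene were used, and Aux/IAA genes only where the symbol begins with IAA. Family members under other symbols were left out. None of the receptors, auxin response factors, SAUR genes or transporters listed was matched in the annotation used here. With CHX alone, 2 of the 5 GH3 genes were higher and 2 lower, and 2 of the 7 Aux/IAA genes were higher and 1 lower, with the same counts in cells given DEX. These counts stand beside 26.9% of all probe sets called with CHX alone and 31% in cells given DEX. The genes went both ways, and the median log2 changes with CHX alone, 0.57 over the GH3 genes and 0.45 over the Aux/IAA genes beside -0.05 over all probe sets, are those of single genes that did not pass, GH3.9 and IAA20. Over the 5 Aux/IAA genes at the floor on at most 6 arrays the median was 0.86, which is the change of IAA34 alone. These 5 ran from -2.14 for IAA18 to 4.42 for IAA30 with CHX alone. GH3.9, the last of the 5 GH3 genes read, was at the floor on 3 arrays and had a change of 0.57 (SE 0.72).

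IAA18 encodes an Aux/IAA repressor with a degron. It was at 6.49, 7.17 and 7.36 with CHX alone, against 9.15, 9.50 and 8.80 with neither. It fell 4.42-fold, without overlap (log2 change -2.14, SE 0.38; limma adjusted p = 0.000659), and 4.16-fold in cells given DEX. IAA34, a less studied member of the family, was at 9.22, 9.25 and 9.10 with CHX alone and at 8.05, 8.54 and 8.41 with neither. It rose 1.82-fold (limma adjusted p = 0.0106), or by 0.86 on the log2 scale (SE 0.22), and 2.01-fold in cells given DEX. IAA20, a relative of IAA30 that also lacks the degron, had a change of 0.45 (SE 0.88) with CHX alone and -0.48 (SE 0.88) in cells given DEX, neither past the threshold. IAA29, at the floor on 3 arrays, had changes of 1.31 with CHX alone and 1.59 in cells given DEX (SE 1.0 each) that did not pass. The first was 0.33 without replicate 2 of neither treatment, and the second was 2.85 without replicate 2 of DEX alone, where it passed (limma adjusted p = 0.0249). IAA31 and IAA33 were at the floor on 7 of 12 arrays each and are given no change.

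**Figure D4:**
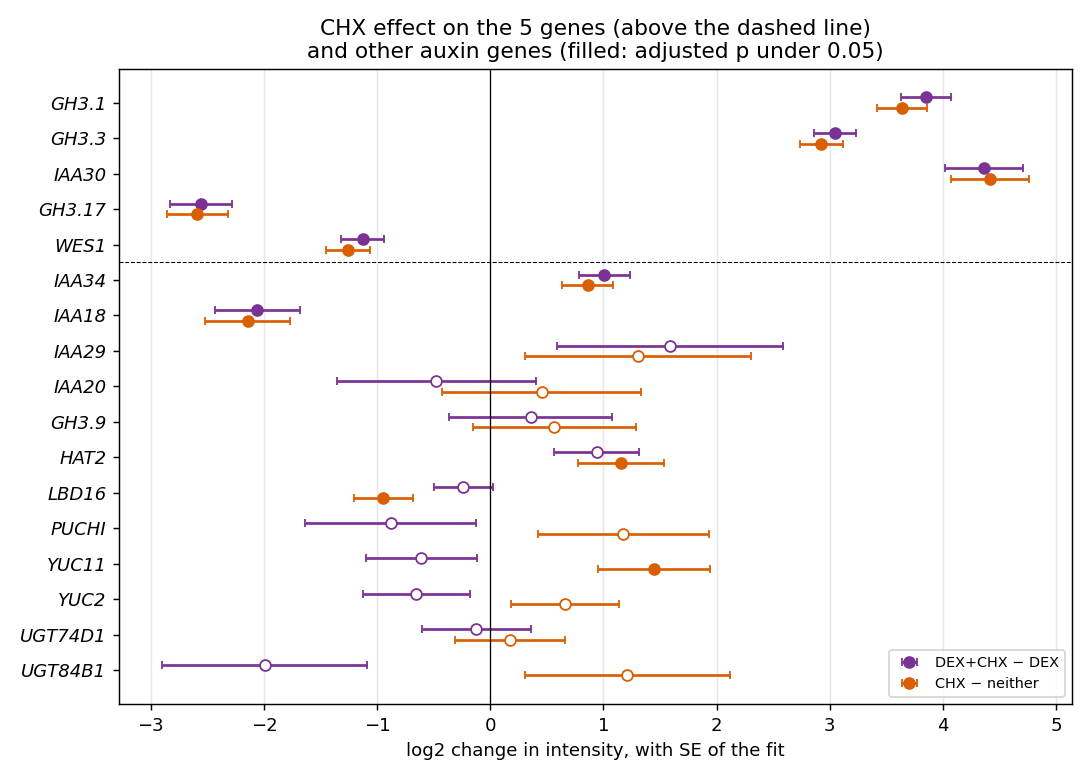
Log2 change with CHX (horizontal axis, bars are the SE of the fit) in cells given DEX (purple) and not given DEX (orange) for the 5 genes, above the dashed line, and the other named auxin genes measured on at least 6 arrays; filled points have an adjusted p under 0.05. IAA18 and IAA34 are filled in both comparisons, and HAT2, LBD16 and YUC11 in CHX alone.

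Among the 4 measured genes of other auxin targets, CHX alone raised HAT2, a homeodomain factor gene, 2.23-fold (limma adjusted p = 0.0366) and lowered LBD16, a regulator of lateral root founding, 1.93-fold (limma adjusted p = 0.0151). In cells given DEX the log2 changes were 0.94 (SE 0.38) for HAT2 and -0.24 (SE 0.26) for LBD16, neither past the threshold. HAT2 passed there after quantile normalization (1.38, limma adjusted p = 0.0121) and with centring (1.43, limma adjusted p = 0.0163), so whether it passed depends on the scaling. It also passed without replicate 3 of neither treatment (0.94, limma adjusted p = 0.0255), an array outside that comparison. There the change was the same, and the SE from the shared spread was 0.28 against 0.38. PUCHI, a factor of lateral root primordia, did not pass in either, and LBD29 was at the floor on 7 arrays. HAT2 lost its call in 7 of 22 alternatives and LBD16 in 2. The call for HAT2 was lost on leaving out any array of CHX alone, or replicate 3 of neither treatment. Of the 4 YUC genes of auxin synthesis, YUC11 was higher with CHX alone (log2 change 1.45, SE 0.49; limma adjusted p = 0.0442) and had a change of -0.61 (SE 0.49) in cells given DEX, while YUC2 did not pass and YUC4 and YUC6 were at the floor on 7 arrays each. The call for YUC11 was lost in 10 of 22 alternatives. It was lost on leaving out any array of CHX alone, or replicate 1 or 3 of neither treatment. The interaction did not pass for YUC11 (-2.06, limma adjusted p = 0.506), LBD16 (0.71, limma adjusted p = 0.644) or HAT2 (-0.21, limma adjusted p = 0.695). A CHX response that differs with DEX is thus not shown for these genes. UGT74D1 and UGT84B1, glucosyltransferases that act on auxin, did not pass in either comparison. UGT84B1, at the floor on 3 arrays, had a change of -1.99 (SE 0.91) in cells given DEX, and passed at -2.83 without replicate 3 of DEX+CHX (limma adjusted p = 0.0379). None of these other auxin genes passed for DEX in limma.

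Genes whose levels ran most like those of the 5 were sought by Pearson's r over the 12 arrays, among 10878 genes at the floor on at most 2 arrays. The arrays form 2 sets by CHX, so any gene with a clear CHX response scores highly, and r is given as a description only. Between 6.74% and 7.84% of genes had an r above 0.9 with GH3.1, GH3.3, GH3.17 or IAA30, and 1.77% with WES1. The most alike were AT5G46295, AT2G32140 and EXLA3, an expansin-like gene, for GH3.1 (r of 0.995 each), and AT4G01090, AT1G50590 and CML38, a calmodulin-like gene, for GH3.3 (0.996 to 0.997). For IAA30 they were AT4G28703, AT2G24600 and AT4G23610 (0.993 to 0.995). EXLA3 averaged 13.71 with both agents, 13.53 with CHX, 8.77 with DEX and 9.43 with neither, and CML38 14.11, 13.81, 11.02 and 10.79. ACLA-3, a subunit gene of ATP-citrate lyase, AT2G17710 and AT2G31390 were most like GH3.17 (0.988 to 0.992). WES1 was matched less closely, by TPP2, the gene of tripeptidyl peptidase, at 0.977, and then by AT2G23090 and AT1G30580 at 0.957 and 0.955. TPP2 averaged 10.24 with both agents, 9.69 with CHX alone, 11.18 with DEX alone and 10.91 with neither, the same order of groups as in WES1.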

How the data were processed

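The labels give total RNA as the extracted molecule and biotin as the label, for 12 Affymetrix Arabidopsis arrays. The authors deposited linear intensities, with a value for each probe set on each array. The trimmed mean was equal on all arrays, which was read from the values; the processing software was not given in the sources used here. Values were floored at 16 and taken to log2, and 64 control probe sets were left out. Of the probe sets, 13513 had 1 gene, 503 several and 8730 none; 13436 were matched by Entrez ID to RefSeq genes of TAIR10.1. The probe set of highest mean stood for a gene.

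A model with 4 group means was fitted to all 12 arrays by lmFit and trended eBayes of limma 3.58.1 (R 4.3.3); p-values were Benjamini-Hochberg adjusted over 22746 probe sets, with a threshold of 0.05. The labels do not say whether replicates were separate preparations, so the p-values may reflect technical spread alone, and the number of arrays limits the precision. No 2 arrays shared values.

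The genes and lists were chosen with earlier results of these data known. Named were the 5 genes, all other GH3 genes matched by name and all other matched Aux/IAA genes with an IAA symbol. Also named were the 3 brightest of each further list (with the rest where counted) and the 3 genes most alike by r. Genes at the floor on over 6 arrays got no change. The alternatives were another floor, a pseudocount of 1, quantile normalization, median centring, leaving out dim probe sets, no variance trend, no moderation, a replicate block, array weights, a fit of only the groups compared, and leaving out each array. Figures were drawn with matplotlib 3.10.9 and tables with pandas 2.3.3 in Python 3.11.15. Sequences were not used here.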

Additional observations from a re-analysis of the deposited data

How the results depend on the processing

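The count of the 5 genes past the threshold with CHX alone was 5 in all 22 alternatives, and in cells given DEX it was 5 in all but 1, where centring took WES1 out. Several alternatives, such as leaving out an array outside the comparison, keep the change as it was and move only its SE. The alternatives are thus not independent checks. No DEX comparison or interaction called any of the 5 in any alternative. Over all probe sets the calls ran from 5105 to 7181 for CHX alone, 5513 to 7949 for CHX in cells given DEX, 0 to 112 for DEX with CHX, 0 to 21 for DEX without it, 0 to 15 for the interaction and 8 to 50 for the average. Without replicate 1 of CHX alone, whose hybridisation controls were dim, the change of GH3.1 with CHX alone was 3.50.

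Between groups, deviations of same-numbered arrays correlated at -0.44 to 0.29, and those of other-numbered arrays at -0.25 to 0.33. No pairing by replicate number was seen on this measure. It cannot tell whether samples were paired, since signal that differs across a whole array also enters these deviations. With the replicate number as a block, all 5 genes passed in both CHX comparisons and none for DEX, and YUC11 and HAT2 lost their calls (adjusted p = 0.0597 and 0.0663).

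Calls gained were those of HAT2 (3 alternatives), IAA29 and UGT84B1 (1 each), all in cells given DEX. Signs turned only in values that had not passed. For DEX with CHX, GH3.3 was -0.10 after quantile normalization; leaving out 1 array gave -0.10 to 0.15 for GH3.1 and -0.47 to 0.046 for GH3.17. For DEX without CHX, GH3.3 was -0.12 with centring and IAA30 -0.046 with array weights; leaving out 1 array gave -0.0049 to 0.18 and -0.10 to 0.57. For the interaction, quantile normalization gave -0.28 for GH3.3, -0.11 for WES1 and 0.073 for IAA30, array weights -0.25 for GH3.17 and 0.25 for IAA30, and centring 0.30 for IAA30. Leaving out 1 array gave interactions of -0.031 to 0.21 for GH3.3, -0.23 to 0.29 for GH3.17, -0.061 to 0.26 for WES1 and -0.40 to 0.27 for IAA30. With CHX alone, array weights gave -0.15 for IAA20 and -0.021 for UGT74D1, and leaving out 1 array -0.37 to 0.997 and -0.15 to 0.48. In cells given DEX, IAA20 was 0.12 with a floor of 64, 0.20 after quantile normalization and 0.013 with centring; UGT74D1 was 0.45 and 0.37 after quantile normalization and centring, YUC11 0.088 after quantile normalization and LBD16 0.25 with centring. There, leaving out 1 array gave -0.011 to 1.04 for GH3.9, -1.13 to 0.49 for IAA20 and -0.41 to 0.22 for UGT74D1. The cause was not tested. No member had a further probe set, so that alternative was not run.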
